A study of Mus musculus with 6 samples.

Results

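Granulocyte-monocyte progenitors (GMPs) of the bone marrow were compared between 4T1 tumor-bearing mice that received brequinar (BRQ) and those that received vehicle. GMPs are committed progenitors that give rise to neutrophils and monocytes, and in tumor-bearing hosts also to myeloid-derived suppressor cells (MDSCs), immature myeloid cells that restrain T cells. They load their primary granules with serine proteases and myeloperoxidase, all of which are folded in the endoplasmic reticulum (ER). BRQ inhibits dihydroorotate dehydrogenase (DHODH), a mitochondrial enzyme of de novo pyrimidine synthesis. 4T1 is a mammary carcinoma line that grows in BALB/c mice and drives a strong expansion of granulocytic cells.

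The cells were chosen by a single gene. A barcode was taken as a GMP when it held 500 to 7500 detected genes, at most 15% of its unique molecular identifiers (UMIs) on mitochondrial genes, and a level of Ms4a3, a membrane protein gene that marks this stage, above 3 on the natural log scale of 1 plus UMIs per 10000. The study words its size limits as transcripts, and they were read here as detected genes. Read as UMIs, the same limits kept 8 to 89 GMPs per tumor-bearing mouse, and 0 of 3229 genes then passed the edgeR test described below (140 had an unadjusted p under 0.05). Of 39488 barcodes, 32762 passed the filters on genes and mitochondrial UMIs, 15966 of those were given to 1 of 9 mice, and 3916 of those were GMPs. The 6 tumor-bearing mice held 3516 of these GMPs, of which 1401 came from vehicle-treated mice (Veh-GMPs) and 2115 from BRQ-treated mice (BRQ-GMPs). The other 400 came from non-tumor-bearing mice (NTB-GMPs), which are shown as a reference level.

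All mice were of the BALB/c strain and 10 weeks old at harvest. NTB mice had neither tumor nor treatment. Both other groups bore 4T1 tumors and were injected i.p. every day for 2 weeks from the time tumors could first be measured, with DPBS as the vehicle or with BRQ at 10 mg/kg. Marrow was enriched for cKit+ cells on magnetic beads, so the shares given here are shares of an enriched suspension and not of whole marrow. Each of 3 pools held 1 mouse of every group, and antibodies that carry a DNA tag told the mice apart. These 3 tags are shown because every value per mouse rests on them, with all 15 tag bases in capitals.
Tag of the NTB mice (B0301): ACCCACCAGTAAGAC
Tag of the vehicle mice (B0302): GGTCGAGAGCATTCA
Tag of the BRQ mice (B0303): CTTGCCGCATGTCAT

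The groups are named by treatment and pool, so that Veh1 and BRQ1 shared pool 1. GMP numbers were 1017 in Veh1, 95 in Veh2 and 289 in Veh3. They were 806 in BRQ1, 656 in BRQ2 and 653 in BRQ3, so that the smallest vehicle library held far fewer cells than any BRQ library. The summed GMP counts per tumor-bearing mouse ran from 1661618 UMIs in Veh2 to 16074010 UMIs in Veh1. Median UMIs per GMP lay between 14737 and 17966 in Veh-GMPs and between 12168.5 and 15795 in BRQ-GMPs, and the median mitochondrial share was 3.17% to 3.58% in all 6 mice. Of the 7021 barcodes that passed the filters and the Ms4a3 limit, 44.2% were not given to a mouse. Pools shared between 38 and 48 barcode sequences by pair, at most 0.376% of the smaller pool.

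The other marker genes, all of primary granules, were higher in the chosen cells than in the rest. The median GMP held 107 UMIs of Elane (neutrophil elastase) per 10000, against 12.4 in the other filtered cells of the 9 mice. Prtn3 (proteinase 3) stood at 151 against 26.5, Mpo (myeloperoxidase) at 50.8 against 18.9, and Ctsg (cathepsin G) at 32.7 against 3.55. Ms4a3 itself, on which the cells were selected, stood at 24.7 against 3.66. Genes of later neutrophil stages were also found in the 3916 GMPs, Ngp in 78.0%, Camp in 72.5%, Lcn2 in 59.3% and Ltf in 30.3%. Cd34 was found in 12.2%, Irf8 in 5.21% and Csf1r in 5.06%. The GMP label therefore follows the Ms4a3 rule, and how far these cells were already committed to neutrophils was not tested. The limit was equal to 19.09 UMIs per 10000, and the values nearest to it were 19.08 outside and 19.09 inside. In the 6 tumor-bearing mice, 3093 cells lay within 0.25 natural log units of the limit, 1721 of them above it, so these GMPs are a range of a continuous level and not a separate cluster.

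The share of GMPs did not differ by more than the spread between mice. They made up 36.6%, 24.9% and 22.9% of the filtered cells in Veh1, Veh2 and Veh3, and 31.4%, 28.3% and 27.9% in BRQ1, BRQ2 and BRQ3. The BRQ values lay inside the range of the vehicle values. The means were 28.1% ± 7.39 (SD, n = 3) and 29.2% ± 1.91 (SD, n = 3), a difference of 1.04 percentage points (2-sided exact permutation test, p = 0.9, where 0.1 is the smallest p that 3 against 3 mice allow).

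For gene expression, UMIs were summed over the GMPs of each mouse and expressed per 1e6 counts (CPM), and the sums were tested with edgeR's quasi-likelihood test. Genes with a p below 0.05 after Benjamini-Hochberg adjustment over all tested genes are referred to as called, and every adjusted p given is from that test. The p values measure the spread between mice, not between cells. Of 10331 genes tested, 1389 or 13.4% were called, 628 (6.08%) higher and 761 (7.37%) lower in BRQ-GMPs. With the pool as a block, 2105 genes were called. Without Veh1, the deepest library, 699 were called, and without Veh2, the shallowest, 987. Scaling by library totals in place of the TMM factors used here moved the median log2 fold change of all genes from 0.00 to 0.20, and it turned the split into 1984 higher and 259 lower, so that directions below are relative to the bulk of the genes. The values of the 3 BRQ and 3 vehicle mice did not overlap for 30.7% of all tested genes and for 1315 of the 1389 called genes. In 1369 of the called genes the ratio of BRQ to vehicle pointed the same way inside each of the 3 pools.

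The called differences were mostly moderate. The median log2 fold change was 0.58 among genes called higher and -0.43 among those called lower. A fold change of at least 2 was found for 105 genes called higher and 52 called lower, and of those with a mean of at least 20 CPM, for 13 and 17. The 12 genes with the largest fold change in each direction at that level, outside the genes of the unfolded protein response (UPR) and of the cytoplasmic ribosome, are described next.

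**Figure D1:**
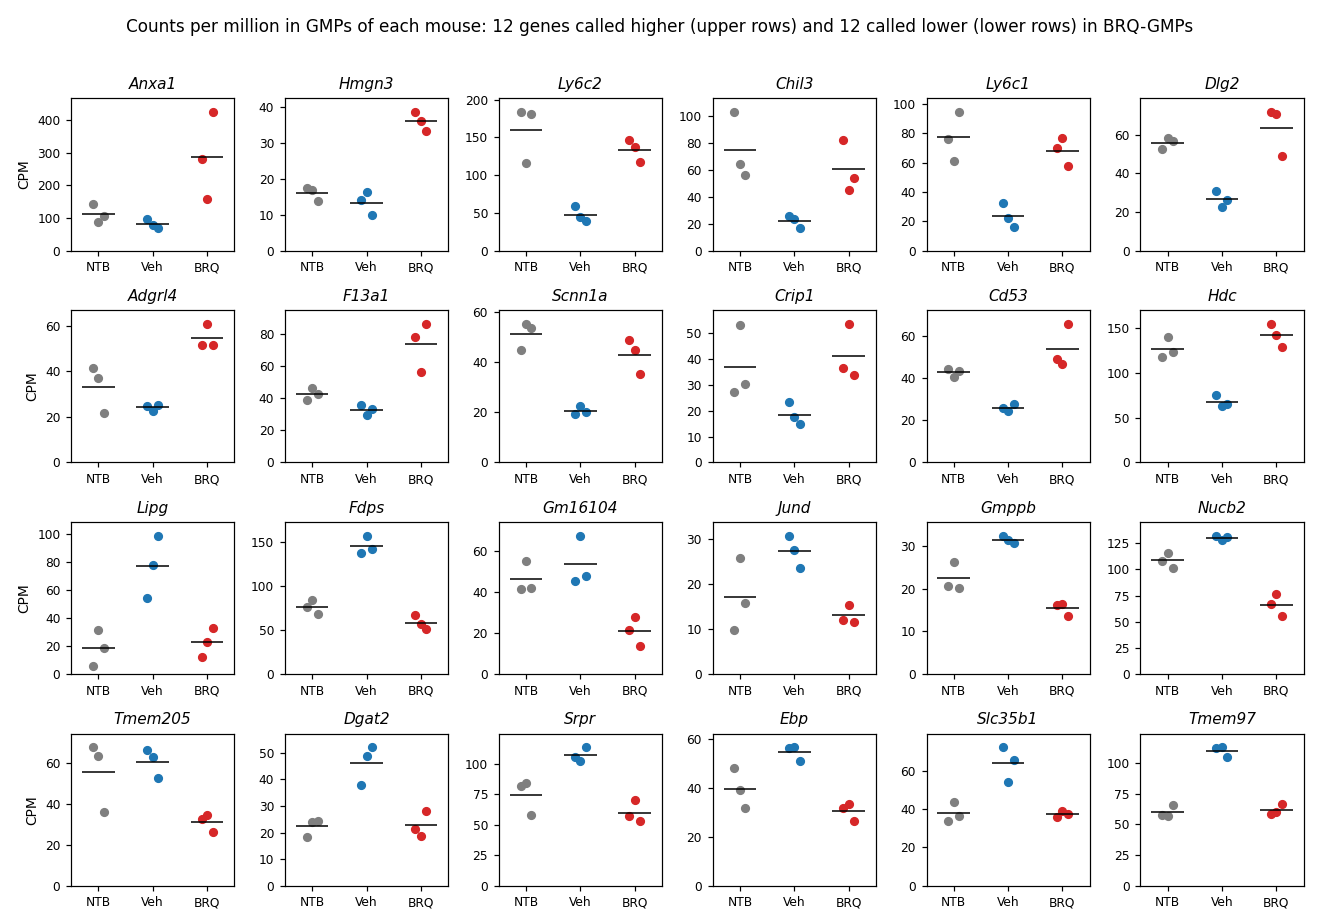
Each panel plots CPM (linear axis from 0) in the GMPs of single mice for 1 gene, with gray points for NTB, blue for vehicle and red for BRQ, pools 1 to 3 from left to right within a group, and a line at the group mean. In all 24 panels the 3 BRQ points and the 3 vehicle points do not overlap, which the rule that picked these genes required; Anxa1 spreads most among BRQ mice, from 160 to 424 CPM.

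Among these, Anxa1 rose most. Anxa1 encodes annexin A1, a calcium-dependent membrane-binding protein that limits neutrophil recruitment through formyl peptide receptors (GRCm38, chr19:20373428-20390944). It stood at 98.0, 78.3 and 69.3 CPM in Veh1, Veh2 and Veh3 and at 282, 160 and 424 CPM in BRQ1, BRQ2 and BRQ3. All 3 BRQ mice also lay above the NTB mice, which held 87.2 to 142 CPM. The log2 fold change was 1.79 ± 0.22 (SE), with an adjusted p of 7.33e-06. Of the 11 tested members of the annexin and formyl peptide receptor list, 4 were called higher, Anxa1 included, and 0 lower, with a median of 0.46, and 7 were not called. Anxa2 rose from 24.7, 32.0 and 26.2 CPM to 43.2, 33.0 and 45.6 CPM (log2 fold change 0.64, adjusted p = 0.00119). S100a10, the binding partner of annexin A2, rose by 0.85 (adjusted p = 0.0021), and Anxa6 by 0.69 (adjusted p = 0.0161).

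Hmgn3 encodes a nucleosome-binding protein of the high mobility group (chr9:83109948-83146685). It was at 14, 16.3 and 9.90 CPM in the vehicle mice and at 38.5, 36.2 and 33.4 CPM in the BRQ mice, with NTB-GMPs at 14 to 17.4 CPM. BRQ mice therefore stood apart from both other groups (log2 fold change 1.46 ± 0.13, adjusted p = 7.14e-08). Of 11 tested high mobility group genes, Hmgn3 was called higher, while Hmgb1, Hmgn2 and Hmgb3 were called lower with log2 fold changes of -0.34, -0.30 and -0.32. Hmgb1 lost its call without Veh2 (adjusted p = 0.0651), Hmgn2 without any 1 of the 3 vehicle mice or without BRQ3 (adjusted p of 0.0592 to 0.0918), and both lost it with library totals. Over the whole list, 0 genes were called lower without Veh2 and 1 without Veh1 or BRQ3, and with library totals 2 were higher and 0 lower.

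Several surface and secreted genes of the later granulocyte and monocyte lineages rose from low vehicle values toward those of NTB-GMPs. Ly6c2, a GPI-anchored surface antigen of monocytes and granulocytes, was at 59.7, 44.5 and 39.2 CPM in vehicle mice and at 147, 138 and 117 CPM in BRQ mice, and NTB mice held 116 to 183 CPM (log2 fold change 1.42, adjusted p = 3.97e-07). Its neighbor Ly6c1 ran in parallel, from 15.9 to 32.3 CPM in vehicle mice against 57.5 to 76.7 CPM in BRQ mice and 61.5 to 94.4 CPM in NTB mice. These genes are near-identical copies on chromosome 15, so how reads were split between them is uncertain. Chil3, a chitinase-like secreted protein of myeloid cells, was at 25.9, 23.8 and 16.7 CPM with vehicle and at 81.9, 45.1 and 54.0 CPM with BRQ, and NTB mice held 56.3 to 102 CPM (log2 fold change 1.42, adjusted p = 3.13e-05). In these genes the vehicle mice were the low group. All BRQ values of Ly6c2 lay within the NTB range, while BRQ3 for Ly6c1 and BRQ2 and BRQ3 for Chil3 lay below it.

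Hdc, which makes histamine from histidine, was at 75.3, 62.7 and 65.0 CPM in vehicle mice and at 155, 143 and 129 CPM in BRQ mice (log2 fold change 1.04, adjusted p = 8.09e-08). NTB-GMPs held 118 to 140 CPM, so again vehicle was the low group. F13a1, the A chain of coagulation factor XIII and a gene of monocyte-committed progenitors, was at 35.7, 29.5 and 33.6 CPM with vehicle and at 78.0, 56.6 and 86.4 CPM with BRQ (log2 fold change 1.12, adjusted p = 2.11e-06). For F13a1 the BRQ mice lay above the NTB mice as well, which held 39.2 to 46.4 CPM. Cd53, a leukocyte tetraspanin, was at 24.4 to 28 CPM with vehicle and at 47.1 to 65.9 CPM with BRQ. The remaining genes of the 12 were Dlg2 (a scaffold protein), Adgrl4 (an adhesion receptor), Scnn1a (a sodium channel subunit) and Crip1 (a LIM-domain protein), with log2 fold changes of 1.17, 1.15, 1.11 and 1.05. Without any 1 mouse, each of the 12 genes stayed called.

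The 12 genes that fell included several of sterol and lipid metabolism. Lipg, an extracellular phospholipase of the lipase family, was at 54.1, 77.7 and 98.8 CPM in vehicle mice and at 12.6, 22.6 and 32.7 CPM in BRQ mice (log2 fold change -1.71 ± 0.24, adjusted p = 4.75e-05). Fdps makes farnesyl diphosphate, the branch point from which sterols and prenyl groups are made (chr3:89093588-89101959). It was at 137, 157 and 143 CPM with vehicle and at 66.9, 57.5 and 51.1 CPM with BRQ, with NTB mice at 68.4 to 84.7 CPM (log2 fold change -1.30 ± 0.10, adjusted p = 5.67e-09). Vehicle mice were the high group for both genes, and every BRQ value of Fdps lay below the NTB values.

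Ebp, a sterol isomerase, fell from 56.0, 56.4 and 51.1 CPM to 31.8, 33.1 and 26.4 CPM (log2 fold change -0.84, adjusted p = 1.8e-05). Tmem97, a sterol-responsive ER membrane protein that binds sterols, fell from 113, 113 and 105 CPM to 58.9, 60.4 and 67.0 CPM (log2 fold change -0.82, adjusted p = 6.24e-07). Dgat2, which makes triacylglycerol, fell from 37.8, 48.9 and 52.0 CPM to 21.2, 18.8 and 28 CPM (log2 fold change -0.97, adjusted p = 5.2e-05). The BRQ values of Tmem97 and Dgat2 overlapped the NTB values, 57.1 to 66.0 CPM and 18.5 to 24.6 CPM, so vehicle was again the group that stood apart.

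Of 53 tested genes of lipid and cholesterol metabolism, 16 were called lower and 2 higher, and the median was -0.25. With library totals 12 were lower and 8 higher. In a narrower list of 23 genes of sterol synthesis and uptake, drawn up after the values had been seen, 14 were called lower and 0 higher, with a median of -0.61, which remained -0.43 with library totals. The lower genes ran along the synthesis route. They included Mvd at the end of the mevalonate steps (-1.08), Idi1 (-0.68), Sqle (-0.61), Cyp51 (-1.17) and Msmo1 (-0.81). Insig1, the ER anchor that holds back the sterol-sensing machinery, fell by 0.83 on the log2 scale. Hmgcs1, a synthase of the early mevalonate route, was not called (-0.07, adjusted p = 0.82). Against the list, Abcg1, a cholesterol exporter, rose (1.70), and so did Alox5, the 5-lipoxygenase of leukotriene synthesis (1.12).

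The other genes of the 12 that fell include 4 of the secretory route. Gmppb makes GDP-mannose for glycosylation, and it fell from 32.5, 31.3 and 30.7 CPM to 16.2, 16.5 and 13.7 CPM. Srpr is the receptor of the signal recognition particle, which docks ribosomes at the ER. It fell from 106, 102 and 114 CPM to 57.0, 70.2 and 53.1 CPM. Slc35b1, an ATP carrier of the ER membrane, and Nucb2, a calcium-binding secreted protein, fell by 0.83 and 0.98 on the log2 scale. BRQ values of these 4 genes lay below all vehicle values, and for Gmppb and Nucb2 also below all NTB values. In the list of ER translocation, glycosylation and vesicle transport, 40 of 68 tested genes were called lower and 0 higher (median -0.32), and 18 were lower with library totals. Surf4, a cargo receptor of the early secretory pathway, fell from 177, 167 and 182 CPM to 111, 113 and 117 CPM.

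Jund, an AP-1 transcription factor, was at 30.7, 27.6 and 23.5 CPM with vehicle and at 12.1, 15.4 and 11.6 CPM with BRQ (log2 fold change -1.10, adjusted p = 3.69e-05). Tmem205, a membrane protein of little known function, fell from 66.1, 62.7 and 52.4 CPM to 32.8, 34.5 and 26.2 CPM. Gm16104 fell from 45.8, 67.7 and 48.0 CPM to 21.7, 27.8 and 13.7 CPM (log2 fold change -1.28, adjusted p = 2.4e-05). It is an annotated antisense transcript that lies within the gene Nfic (chr10:81409575-81411579), so its reads may not be fully separable from those of its host. As among the genes that rose, each of these 12 stayed called without any 1 mouse.

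**Figure D2:**
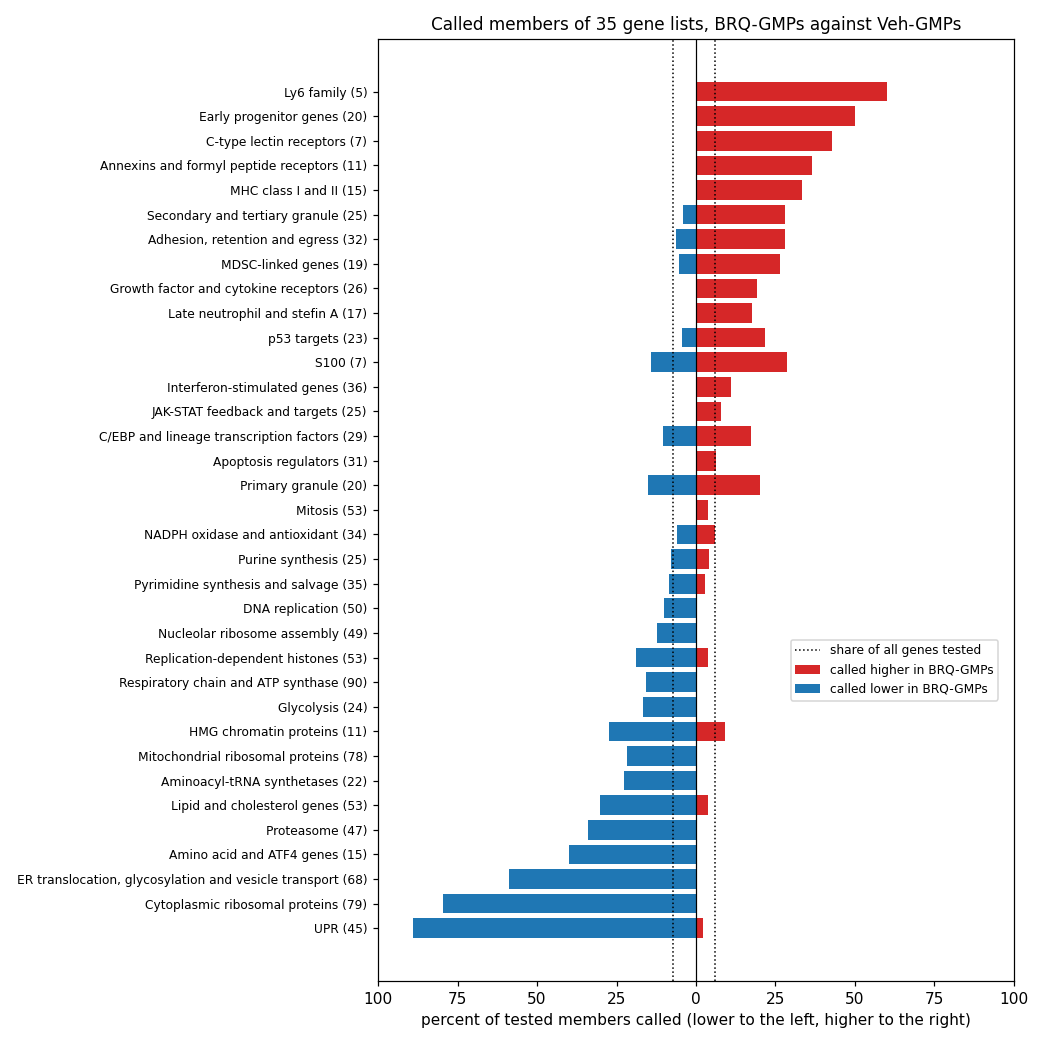
Bars give, for each of 35 gene lists, the percent of its tested members (number in brackets) called higher (red, to the right) or lower (blue, to the left) in BRQ-GMPs against Veh-GMPs, and dotted lines mark the same shares over all genes, 6.08% and 7.37%. UPR, cytoplasmic ribosome and ER transport genes reach farthest to the left. The Ly6 family (3 of 5 tested genes), early progenitor genes and C-type lectin receptors reach farthest to the right.

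The UPR raises the folding capacity of the ER, and its chaperone genes carry the ER stress element in their promoters, a site read by ATF6 with NF-Y. Of 45 tested UPR genes, 40 were called lower and 1 higher in BRQ-GMPs, with a median of -0.63. Creld2, an ER-resident disulfide isomerase-like protein, fell from 124, 123 and 126 CPM to 33.8, 38.6 and 31.3 CPM. Hspa5 (BiP), the main ER chaperone of the Hsp70 family, fell from 1003, 1057 and 1033 CPM to 477, 511 and 400.1 CPM (adjusted p = 5.49e-08). Calr (calreticulin), a lectin chaperone of glycoproteins, fell from 2383, 2338 and 2491 CPM to 1129, 1220 and 1193 CPM, and Hsp90b1 (GRP94) by 1.06 on the log2 scale. UPR genes together held 1.5% to 1.53% of all GMP UMIs in vehicle mice, 0.986% to 1.05% in BRQ mice and 0.994% to 1.08% in NTB mice, so the BRQ range overlapped that of NTB mice.

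The promoters of these 4 genes are shown because a group that fell together can be set beside a shared sequence. In RefSeq promoters of GRCm38.p6, taken from 250 bases before to 50 bases after the start of each gene, the ER stress element (CCAAT, 9 free bases, CCACG) was searched on both strands. It was found in 39 of 32851 promoters (0.119%), and in 13 of the 8191 tested genes with an entry (0.159%). Among UPR genes 9 of 37 tested members with an entry (24.3%) held it. In the lists of ER transport (55 with an entry), sterol synthesis and uptake (16) and cytoplasmic ribosomal proteins (59) there were 0 matches. The UPR list was compiled from known UPR genes, so the match is a description of the list and not independent of its function. Each line gives 79 bases on the strand of the gene with the element in capitals, in Creld2 and Calr as its reverse complement.
Creld2 (chr15:88819490-88819568, plus strand): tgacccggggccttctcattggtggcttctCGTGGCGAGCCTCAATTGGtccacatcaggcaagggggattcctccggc
Hsp90b1 (chr10:86705608-86705686, minus strand): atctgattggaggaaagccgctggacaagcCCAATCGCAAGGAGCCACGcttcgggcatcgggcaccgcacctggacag
Calr (chr8:84847045-84847123, minus strand): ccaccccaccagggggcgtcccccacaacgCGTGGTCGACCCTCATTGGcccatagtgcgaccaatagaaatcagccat
Hspa5 (chr2:34771995-34772073, plus strand): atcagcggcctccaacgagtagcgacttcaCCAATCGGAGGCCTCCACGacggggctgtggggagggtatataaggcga

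A core of the sterol response element, TCACNCCAC, was searched in the same way and was found in 408 promoters (1.24%). It was present in 1 of the 16 sterol genes with an entry, Hmgcs1, and in 0 of the 8 that were called lower. These letters cover only 1 form of that site in a window of 300 bases.

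Genes of early progenitors were called in the higher direction only. The list holds genes that hematopoietic stem cells and early myeloid progenitors use and that are shut off along granulocyte maturation, and 10 of its 20 tested members were called higher and 0 lower (median 0.52). Myb, a transcription factor of proliferating progenitors, was at 610, 620 and 585 CPM in vehicle mice and at 843, 911 and 853 CPM in BRQ mice. Kit, the stem cell factor receptor, was at 46.2, 40.1 and 43.3 CPM and at 66.1, 76.4 and 59.4 CPM (log2 fold change 0.60, adjusted p = 4.53e-04). Cd93, a surface glycoprotein of progenitors, rose from 24.7, 18.2 and 21.7 CPM to 39.2, 46.0 and 40.1 CPM. For these 3 genes every BRQ mouse stood above every vehicle mouse, and for Myb also above the NTB mice, at 647 to 681 CPM. Cd34 rose by 0.97 (adjusted p = 0.00308), and Cd27 and Sox4 by 0.66 and 0.69. When mice were called by hashtag ratios, Cd34 (0.43, adjusted p = 0.49), Kit (0.38, adjusted p = 0.265) and Cd93 (0.65, adjusted p = 0.0662) lost their calls.

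Some genes of later stages were called higher beside them. Of 25 tested genes of the secondary and tertiary granules, the stores that neutrophils fill after the GMP stage, 7 were called higher and 1 lower (median 0.20). Itgam, the alpha chain of Mac-1 (CD11b), was at 44.1, 41.4 and 41.7 CPM in vehicle mice and at 70.5, 66.2 and 65.1 CPM in BRQ mice. Slpi, a secreted inhibitor of elastase and cathepsin G, was at 112, 111 and 115 CPM and at 163, 162 and 192 CPM (log2 fold change 0.61, adjusted p = 3.13e-05). The 2 groups stood apart for both genes. Retnlg and Mmp8 were called as well, but both calls were lost without Veh1 (adjusted p of 0.287 and 0.167) and rested on few cells. Retnlg was at 28.8, 79.0 and 50.5 CPM in vehicle mice and at 51.3, 82.7 and 116 CPM in BRQ mice, with overlapping groups. When 97 GMPs (2.76%) marked as likely doublets by Scrublet were left out, its log2 fold change went from 0.89 to -0.27, and that of Ly6g, a neutrophil surface antigen, from 0.58 to -0.10. Mmp8 then had 0.28 (adjusted p = 0.786), and 4 of the list were called higher in place of 7, with a median of 0.07. Of the genes above, Chil3, Ly6c2, Anxa1 and F13a1 stayed called, with log2 fold changes of 1.43, 1.43, 1.91 and 1.11. In the Ly6 family, 3 of 5 tested genes were called higher with all GMPs (median 0.58) and 2 without the Scrublet-marked cells (median 0.245). Leaving out Veh1, Veh3 or BRQ1 also gave 2, and leaving out BRQ2 gave 5.

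**Figure D3:**
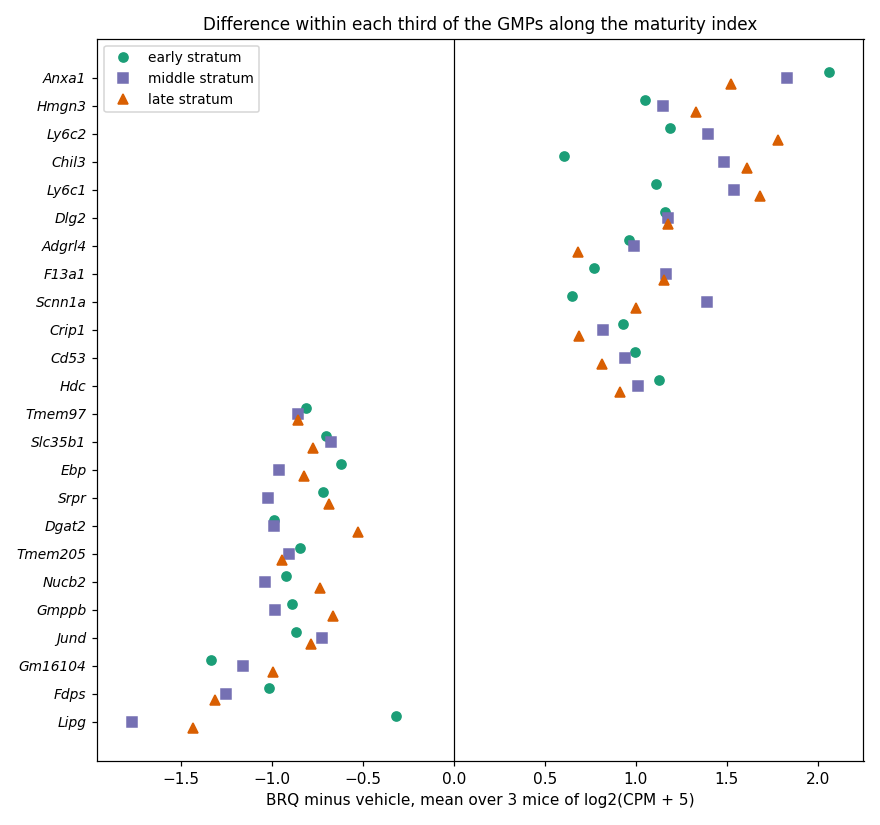
Points give, for the 24 genes of largest fold change, the BRQ minus vehicle difference of the mean log2(CPM + 5) over 3 mice per group, computed apart in the early (circles), middle (squares) and late (triangles) strata, of equal size, of GMPs along the maturity index. All 12 upper genes lie to the right of 0 and all 12 lower genes to the left in each stratum, with Lipg in early GMPs (-0.32) nearest to 0.

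To set cells side by side along maturation, the GMPs of the 6 tumor-bearing mice were ranked by an index, the mean of Fcnb, Cebpe, Ltf, Camp, Ngp and Lcn2 minus that of Cd34, Kit, Flt3, Sox4, Cd27 and Myb, and cut into 3 strata of equal size. The late stratum held 38.9%, 35.8% and 37.0% of the GMPs of vehicle mice and 33.4%, 30.3% and 25.6% of those of BRQ mice. Every BRQ mouse lay below every vehicle mouse, with a mean difference of -7.49 percentage points (exact permutation test, p = 0.1, the smallest possible). The groups overlapped with an Ms4a3 limit of 2.5 (32.9% in Veh2 against 35.0% in BRQ1), with 500 to 7500 UMIs per cell and with mice called by hashtag ratios (exact p = 0.2, 0.4 and 0.3). Because Cd34, Kit, Sox4, Cd27 and Myb of the index were themselves called, this share is not independent of the expression changes. The strata are for the same reason not of equal maturity in both groups, and the 24 genes were picked for their change in these cells, so that their directions within strata are a description. Within each stratum all 12 of the genes that rose had a positive difference and all 12 that fell a negative one. The 2 groups did not overlap for 11, 12 and 11 of the former and for 11, 12 and 12 of the latter in early, middle and late GMPs. Anxa1 had differences of 2.06, 1.83 and 1.52 in log2(CPM + 5) from early to late GMPs, and Fdps of -1.02, -1.25 and -1.31. Chil3 overlapped between groups in early GMPs (0.60) and not in middle and late GMPs (1.49 and 1.61), and Lipg likewise had -0.32 in early GMPs and -1.77 and -1.44 later. With equal numbers of cells per stratum taken from each mouse, 1303 genes were called in all, and 1119 of the 1389 were among them. Cd34 lost its call there (0.55, adjusted p = 0.115).

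The primary granule genes that define the stage moved in both directions. Of 20 tested, 4 were called higher (2 without BRQ1, BRQ2 or Veh1 and 1 without Veh3) and 3 lower, and the median of -0.07 turned to 0.12 with library totals. Mpo was at 5885, 6349 and 5974 CPM in vehicle mice and at 4162, 4959 and 3593 CPM in BRQ mice (log2 fold change -0.52, adjusted p = 0.00277). Prtn3 fell by 0.49 (adjusted p = 0.00875), while Ctsg (-0.22, adjusted p = 0.289) and Elane (-0.02, adjusted p = 0.957) were not called. Cst7 (cystatin F), which inhibits the protease that activates granule enzymes, rose from 291, 246 and 260 CPM to 348, 353 and 346 CPM. Its target Ctsc (cathepsin C) rose too, by 0.51. Ms4a3 was at 2618 to 2934 CPM with vehicle and at 2237 to 2599 CPM with BRQ, and was not tested because it chose the cells.

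Among 32 tested genes of adhesion, retention and egress, 9 were called higher (28.1%, against 6.08% of all genes) and 2 lower (6.25%, against 7.37%), with a median of 0.23. These counts were 7 and 5 without BRQ2 and 6 and 1 without Veh1. Cd44, the hyaluronan receptor, was at 40.5, 31.3 and 42.5 CPM with vehicle and at 69.5, 71.0 and 85.5 CPM with BRQ (log2 fold change 0.93, adjusted p = 2.74e-06). The 2 groups did not overlap, and BRQ-GMPs held more Cd44 than any NTB mouse (57.8 to 68.4 CPM). Cxcr4, the CXCL12 receptor that retains progenitors in the marrow, and Selplg, the P-selectin ligand, were also called higher, and Cd63 and Cd24a lower. Among cytoskeletal genes, Vim (vimentin) rose from 73.2, 62.1 and 55.3 CPM to 130, 117 and 120 CPM (log2 fold change 0.92, adjusted p = 1.44e-06), and Tmsb10, an actin monomer-binding peptide, from 77.7, 68.3 and 72.6 CPM to 107, 110 and 130 CPM.

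Some receptors and regulators of lineage were called. Of 26 growth factor and cytokine receptors, 5 were called higher (Cd44, Kit, Il2rg, Il6ra and Csf1r) and 0 lower (2 lower without BRQ3). Csf1r, the M-CSF receptor, stayed low at 1.36 to 3.13 CPM with vehicle and 4.10 to 5.50 CPM with BRQ, and it lost its call without Veh1 (adjusted p = 0.0563) or Veh3 (adjusted p = 0.106). Csf3r, the G-CSF receptor, was not called (0.03, adjusted p = 0.903). Of 29 C/EBP and lineage transcription factors, 5 were called higher (17.2%, against 6.08% of all genes) and 3 lower (10.3%, against 7.37%). Without Veh1 these were 3 and 1. Zeb2, a repressor used in monocyte and dendritic development, was at 57.3, 60.2 and 50.5 CPM and at 103, 99.6 and 101 CPM (log2 fold change 0.87, adjusted p = 2.11e-06), and Runx2 rose by 0.64. Jund, Id2 and Cebpb were the factors called lower. Irf8, the monocyte and dendritic lineage factor, had 0.27 (adjusted p = 0.544), and Cebpe, needed for secondary granules, had -0.17 (adjusted p = 0.282).

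Clec4a2, an inhibitory C-type lectin receptor (DCIR), was at 181, 130 and 126 CPM in vehicle mice and at 315, 288 and 242 CPM in BRQ mice (log2 fold change 0.92, adjusted p = 1.9e-05). NTB-GMPs held 290 to 365 CPM, so that vehicle was the low group. It was 1 of 3 C-type lectin receptors called higher of 7 tested, with 0 lower. The others were Clec2d and Clec4d, both of which lost the call without Veh3 (adjusted p = 0.0664 and 0.0619). Clec2d also lost it without BRQ1 (adjusted p = 0.0727), and Clec4d, with overlapping groups, without Veh1 (adjusted p = 0.176). Of 15 MHC genes 5 were called higher (3 without Veh1, 8 without BRQ3) and 0 lower (median 0.31). H2-K1, a classical class I heavy chain, was at 256, 228 and 228 CPM with vehicle and at 322, 409 and 360 CPM with BRQ, and H2-D1 rose by 0.53 (adjusted p = 7.7e-04). Class I heavy chain genes are close homologs and how reads were shared among them is uncertain. Interferon-stimulated genes gave 4 of 36 (11.1%, against 6.08% of all genes) called higher and 0 lower, with 1 left without Veh1 and 2 without Veh2 or Veh3. JAK-STAT feedback genes gave 2 of 25 (8%), Stat3 and Stat5a. Both lost the call without any 1 of BRQ1, BRQ3 and the 3 vehicle mice, and DESeq2 called 0 of the 25.

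Among 19 tested MDSC-linked genes, 5 were called higher (26.3%, against 6.08% of all genes) and 1 lower (5.26%, against 7.37%), with a median of 0.06. Those higher were Ly6c2, Cd84, Ctsb, Stat3 and Ly6g, with 3 called without BRQ1, Veh1 or Veh3. S100a9 was the lower one. Cd84, a SLAM-family receptor, was at 14, 16.9 and 11.6 CPM with vehicle and at 20.2, 25.3 and 21.7 CPM with BRQ, and NTB mice held 27.0 to 32.7 CPM. Its log2 fold change was 0.71 (adjusted p = 7.65e-04). S100a9, a subunit of calprotectin, was at 25158, 22486 and 22126 CPM with vehicle and at 21669, 15542 and 14752 CPM with BRQ. Its call was lost without any 1 of the 6 tumor-bearing mice other than BRQ1 (adjusted p of 0.0553 to 0.158). Stat3 lost its call without any 1 of BRQ1, BRQ3 and the 3 vehicle mice (adjusted p of 0.0593 to 0.126), and Ly6g without BRQ1, Veh1 or Veh3 (0.13 to 0.244), besides its dependence on the Scrublet-marked cells.

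The pyrimidine genes lie around the drug target. Of 35 tested genes of pyrimidine synthesis and salvage, 1 was called higher (2.86%, against 6.08% of all genes) and 3 lower (8.57%, against 7.37%), with a median of -0.07, which turned to 0.14 with library totals, where 7 were called higher and 1 lower. Dhodh itself had a log2 fold change of 0.03 ± 0.19 (adjusted p = 0.996). Cad, which runs the first steps of the route, had -0.17 (adjusted p = 0.362), and Umps, which ends it at UMP, -0.21 (adjusted p = 0.224). Ctps2, which makes CTP from UTP, was the gene called higher, from 12.8, 13.8 and 13 CPM to 18.6, 20.6 and 18.6 CPM, and lost the call without Veh1 (adjusted p = 0.0663). The lower genes were the nucleoside diphosphate kinases Nme1, Nme2 and Nme6. Purine synthesis gave 1 of 25 called higher (4%) and 2 lower (8%), near the same shares of all genes, and its median of -0.07 turned to 0.14 with library totals, with 6 higher and 1 lower.

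The p53 targets, which respond to DNA damage and nucleotide shortage, gave 5 of 23 called higher and 1 lower (median 0.17), with 2 higher without Veh1 or BRQ1 and 3 without Veh2. Cdkn1a, the cell cycle inhibitor p21, was at 2.08, 1.88 and 2.33 CPM in vehicle mice and at 5.46, 3.57 and 15.9 CPM in BRQ mice. All BRQ mice were above all vehicle mice at low counts, BRQ3 far more so (log2 fold change 2.00, adjusted p = 0.00314), and the call was lost without Veh1 (adjusted p = 0.0627). Psrc1, a spindle protein, rose by 1.03 and the repair gene Xpc by 0.30, the latter with the call lost without Veh1 or BRQ1 (adjusted p of 0.0839 and 0.0516). Ddb2, also a repair gene, fell by 0.86 on the log2 scale. Among the cell cycle lists, 2 of 53 mitosis genes (3.77%, against 6.08% of all genes) were called higher and 0 lower (median 0.02), or 15 and 0 with library totals (median 0.22), and Mki67 had 0.02 (adjusted p = 0.94). Of 50 DNA replication genes 0 were called higher and 5 lower (10%, against 7.37% of all genes, and 3 without Veh1, Veh3 or BRQ2), and their median of -0.11 turned to 0.10 with library totals, with 3 higher and 0 lower. Lig1, the replicative ligase, fell from 158, 138 and 164 CPM to 123, 114 and 109 CPM, and Pcna, the sliding clamp, by 0.36 on the log2 scale. Both lost their call with library totals (adjusted p = 0.056 and 0.152).

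Most genes of the cytoplasmic ribosome fell, and smaller parts of other lists of growth and protein supply were called lower. Of 79 tested cytoplasmic ribosomal protein genes, 63 were called lower and 0 higher (median -0.40), with 42 lower under library totals and 36 without Veh1, and their share of GMP UMIs was 27.5% to 28.4% in vehicle mice and 22.2% to 25.9% in BRQ mice. Npm1, a nucleolar chaperone of ribosome assembly, fell from 2397, 2396 and 2156 CPM to 1623, 1512 and 1648 CPM (log2 fold change -0.54, adjusted p = 3.19e-04). In the nucleolar list 6 of 49 genes were called lower (12.2%, against 7.37% of all genes). Of 15 amino acid and ATF4 genes 6 were called lower and 0 higher (median -0.29). Psph, the last enzyme of serine synthesis, fell from 67.2, 65.8 and 58.4 CPM to 38.9, 42.7 and 38.7 CPM, and Atf5 from 12.5, 10.7 and 13 CPM to 6.65, 6.71 and 6.77 CPM. Proteasome genes gave 16 of 47 called lower and 0 higher (median -0.21), aminoacyl-tRNA synthetases 5 of 22, and replication-dependent histones 10 of 53 called lower and 2 higher. These counts rested on the scaling. With library totals the proteasome had 3 called lower and 1 higher (median -0.01), the synthetases 0 and 1, the histones 1 and 3, the amino acid and ATF4 genes 2 and 1, and the nucleolar genes 1 and 0. Without Veh1, 5 proteasome, 2 synthetase, 3 amino acid and ATF4 and 3 nucleolar genes were called lower, and without BRQ1 or Veh3 4 histone genes were.

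In mitochondria, 17 of 78 ribosomal protein genes and 14 of 90 genes of the respiratory chain and ATP synthase were called lower and 0 of either higher. Without Veh1 these were 6 and 2, and with library totals 3 and 2 were lower and 5 and 4 higher. Mrpl17 fell from 152, 154 and 156 CPM to 106, 103 and 104 CPM (log2 fold change -0.56, adjusted p = 3.82e-05), and Atp5g1, a subunit of the membrane rotor, from 853, 826 and 780.5 CPM to 649, 626 and 580.5 CPM. The medians of these lists, -0.15 and -0.14, turned to 0.05 and 0.05 with library totals, as did those of nucleolar genes (-0.14 to 0.05) and tRNA synthetases (-0.18 to 0.02). The UMI share of the respiratory chain list did not fall and was 3.55% to 3.65% in vehicle mice and 3.65% to 3.80% in BRQ mice, so for these lists a lower value holds only relative to the bulk of the genes. Glycolysis genes gave 4 of 24 called lower (1 without BRQ1 or Veh2, 2 without Veh1 or Veh3) with a median of 0.00, Gapdh among them (-0.46), and with library totals 5 were higher and 1 lower. Oxidant defense and NADPH oxidase genes were called in both directions, 2 of 34 each (5.88%, against 6.08% and 7.37% of all genes), with Sod1, the cytosolic superoxide dismutase, higher (0.59) and Prdx6, a peroxiredoxin, lower (-0.53). Apoptosis regulators gave 2 of 31 (6.45%, against 6.08%) called higher. Bax, a pore-forming member among them, lost the call without BRQ1, Veh2 or Veh3 (adjusted p of 0.0753 to 0.157).

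Lists called mainly higher gained calls with library totals. Called higher were then 16 early progenitor, 12 secondary and tertiary granule, 8 annexin, 5 C-type lectin, 10 MHC, 12 interferon-stimulated, 8 JAK-STAT, 11 receptor, 14 lineage factor, 15 adhesion and 9 p53 target genes. Of these lists, the lineage factor and adhesion lists had 1 gene each called lower and the others 0.

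**Figure D4:**
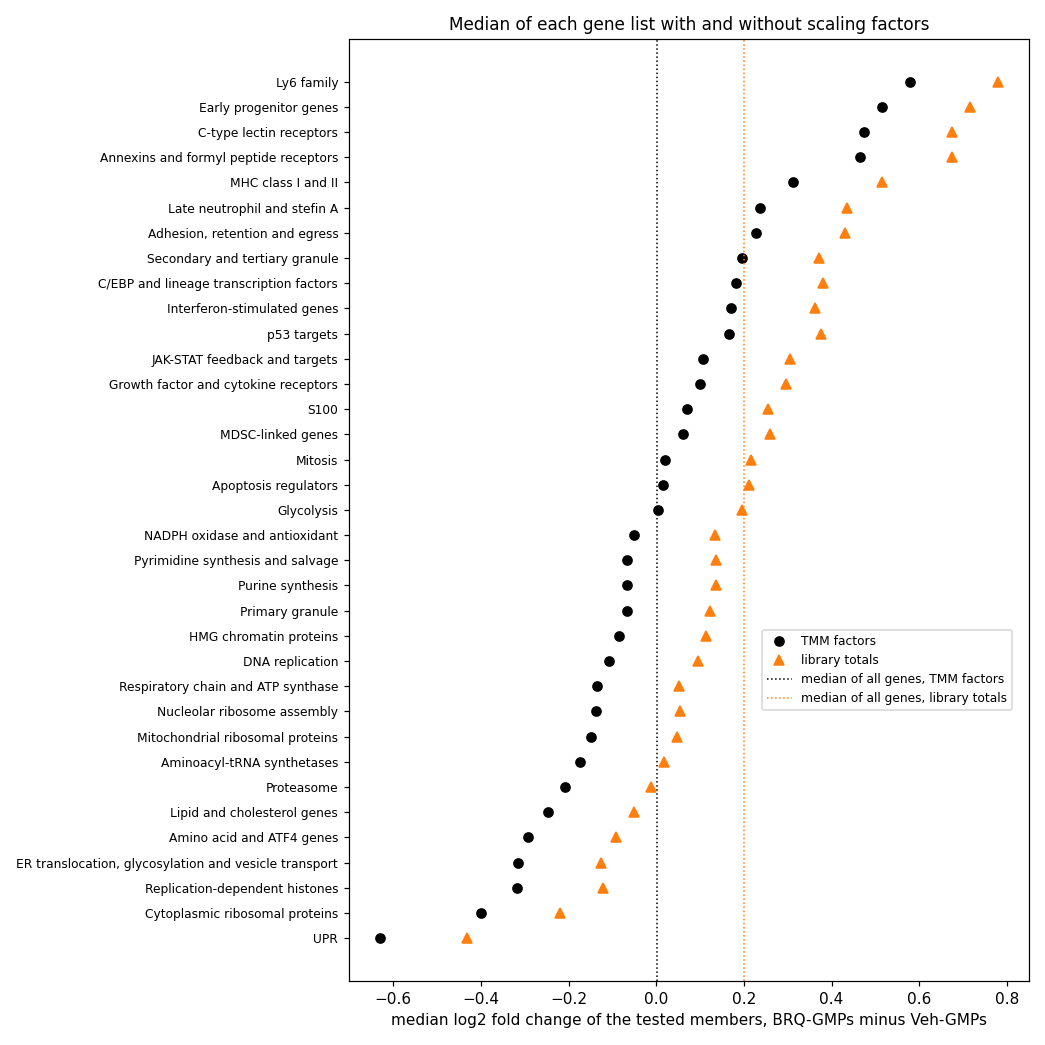
Points give the median log2 fold change (BRQ-GMPs minus Veh-GMPs) of the tested members of each of 35 lists, with TMM factors (black circles) and with library totals (orange triangles), and dotted lines mark the median of all genes, 0.00 and 0.20. The order of the lists is nearly kept while all medians shift to the right; with library totals those of UPR (-0.43), cytoplasmic ribosome (-0.22), ER transport (-0.13), histone (-0.12), amino acid and ATF4 (-0.09), lipid (-0.05) and proteasome (-0.01) genes stay below 0.

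Whether a changed level came with more cells that held the transcript was looked at by thinning each GMP to 5000 UMIs, which left out 41 Veh-GMPs and 58 BRQ-GMPs with fewer. As a background for free RNA, 86 erythroid progenitors without Ms4a3 (median 19434 UMIs, against 14100 in GMPs of the tumor-bearing mice) were thinned in the same way. Anxa1 was found in 22.5%, 14.6% and 19.4% of Veh-GMPs and in 41.4%, 30.0% and 63.7% of BRQ-GMPs, against 12.8% of erythroid cells. GMPs with at least 1 UMI held on average 1.94 UMIs of Anxa1 with vehicle and 3.60 with BRQ, so both the share of cells and the amount per positive cell were higher. Ly6c2 was found in 10.1% to 19.0% and 41.8% to 44.0%, with 3.49% in erythroid cells, and Hmgn3 in 3.96% to 8.99% and 15.6% to 17.8%, with 0 of 86 erythroid cells, which allows a share of up to 3.49%. Fdps was found in 43.9% to 46.1% of Veh-GMPs and in 23.4% to 28.5% of BRQ-GMPs, with 16.3% of erythroid cells. Without thinning, the mean shares over mice were 34.8% and 59.3% for Anxa1, 38.8% and 66.5% for Ly6c2, 18.4% and 38.8% for Hmgn3, and 77.6% and 53.9% for Fdps. Of the 24 genes of largest change, Crip1 (40.7%) and Jund (17.4%) were held by a larger share of erythroid cells than of GMPs, so for these free RNA or a shared use in other cells cannot be told apart from expression in GMPs. Gmppb was found in 11.6% of erythroid cells, below the 12.9% to 18% of Veh-GMPs and above the 5.95% to 7.86% of BRQ-GMPs, so the same holds for its BRQ level. The same holds for Tmem97 in BRQ1 and BRQ2 (22.6% and 25.5%, against 26.7%) and for Ebp in BRQ1 and BRQ3 (12.5% and 12.1%, against 12.8%). Among the other genes named, S100a10 (29.1%), Kit (39.5%), Cd44 (39.5%), Tmsb10 (51.2%), Zeb2 (59.3%) and Sod1 (77.9%) are examples that were also found in a larger share of erythroid cells than of the GMPs of any tumor-bearing mouse.

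**Figure D5:**
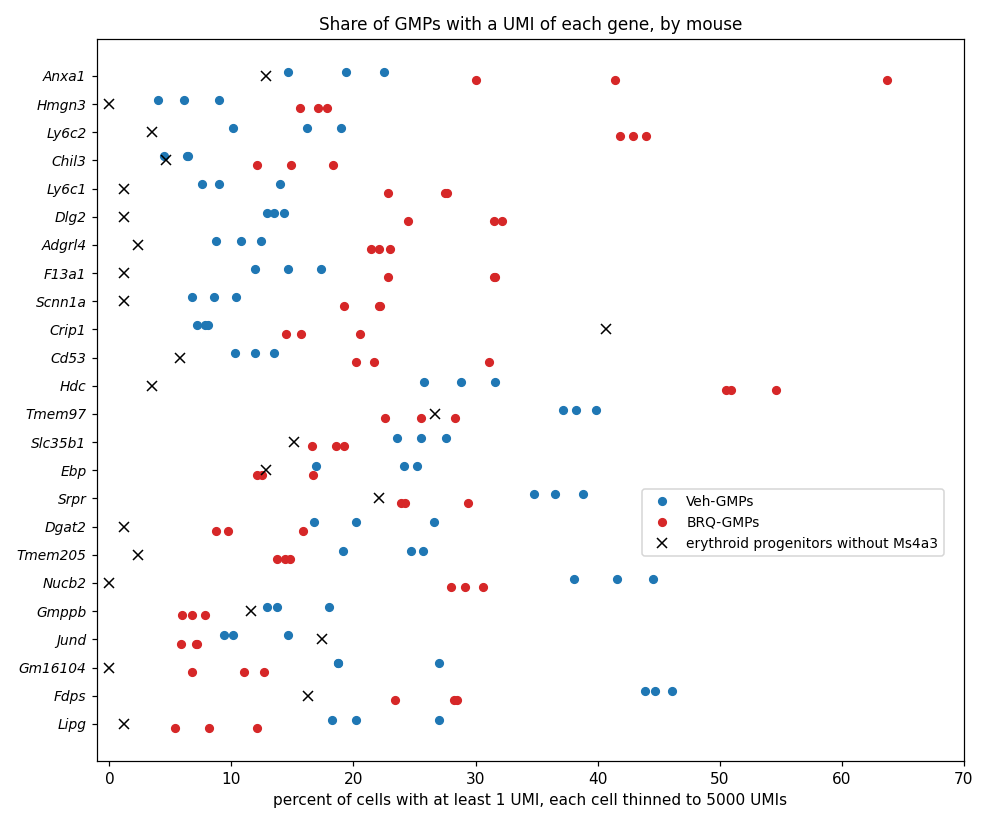
The x axis gives the percent of cells with at least 1 UMI after thinning each cell to 5000 UMIs, for 24 genes, with blue points for the 3 vehicle mice, red points for the 3 BRQ mice and a cross for erythroid progenitors without Ms4a3. Red lies to the right of blue in the upper 12 genes and to the left in the lower 12; the BRQ mice spread most for Anxa1, from 30.0% to 63.7%.

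Markers of other cell types were counted in the same GMP sums, here per 1e6 of the library total without TMM factors. The 14 monocyte and dendritic markers together held 586 to 630 CPM in vehicle mice and 832 to 903 CPM in BRQ mice, with 4 of 8 tested called higher (F13a1, Csf1r, H2-Ab1 and Ms4a6c) and 0 lower. Most of this sum was Cst3, found in 98.4% of GMPs, with overlapping groups (546 to 605 CPM and 587 to 756 CPM with TMM factors). The basophil, mast cell and eosinophil markers held 86.1 to 114 CPM and 186 to 202 CPM, with Hdc and Ms4a2 called of 5 tested. Most of this sum was Hdc itself, found in 71.6% of GMPs, while Prss34, Cpa3, Fcer1a and Epx were found in 0.128% to 0.996%. Stem and multipotent progenitor markers held 41.5 to 47.9 CPM and 69.2 to 86.9 CPM, with Cd34 and Hoxa9 called of 5. These 3 sums rose without overlap beside the F13a1, Hdc and early progenitor results above, genes that they contain, and their part in those results was not tested. At these low levels H2-Ab1, Ms4a2 and Hoxa9 each lost the call without Veh1 (adjusted p of 0.262, 0.117 and 0.343), and also without Veh3 (0.0865, 0.0584 and 0.0996). Neutrophil markers overlapped between groups (1560 to 2880 CPM and 1440 to 2740 CPM), with 3 of 13 called higher, and 0 of 13 once the Scrublet-marked cells were left out. Erythroid markers held 125 to 147 CPM and 81.2 to 122 CPM, with Tfrc, the transferrin receptor that proliferating cells also use, called lower (-0.63). B-cell, T- and NK-cell, megakaryocyte and stromal markers had 0 members called. The sum of the B-cell markers was nevertheless higher in every BRQ mouse (21.2 to 28.7 CPM) than in any vehicle mouse, and its source was not tested. The T- and NK-cell, megakaryocyte and stromal sums overlapped between groups. Ms4a1, Cd3e, Cd3g, Trbc2, Gzma and Cldn4 were at 0 in the GMP sums of all 6 tumor-bearing mice.

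GMPs were also set against 1336 other filtered cells of the same mice (982 in tumor-bearing mice). These held Mpo above 2 on the natural log scale and no UMI of Ms4a3. Their median Mpo was 11.7 UMIs per 10000, below the 18.9 of all filtered cells outside the GMPs and the 50.8 of GMPs. They are thus not high in Mpo, and whether their Mpo UMIs came from free RNA was not tested. Of 9399 genes tested for a BRQ minus vehicle difference that was not the same in both kinds of cell, 40 (0.426%) were called, 26 with a larger and 14 with a smaller value in GMPs. By mean log2 CPM of the joint counts, Anxa1 had a BRQ minus vehicle difference of 1.71 in GMPs and -0.29 in the other cells. Cd53 had 1.02 and -0.66. Hsp90b1 fell in GMPs (-1.06) and had 0.27 in the other cells. The comparison cells of tumor-bearing mice had median depths of 1347 to 2495 UMIs, far below those of GMPs. The part of depth in these differences was not tested beyond a repeat with cells of at least 5000 UMIs. That repeat held 61, 4 and 18 cells of Veh1, Veh2 and Veh3 and 47, 47 and 49 of the BRQ mice, so it cannot decide the part of depth. In it 59 genes were called, and 19 of the 40 were among them. Against all 1336 comparison cells, leaving out Veh1 raised the count to 715, and leaving out Veh2, BRQ1, Veh3 or BRQ2 lowered it to between 8 and 15.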

How the data were processed

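Per the labels, single-cell 3' libraries (10x Genomics) with hashtag reads were made from 3 pools of cKit+ marrow, and the authors deposited raw UMI counts per gene or hashtag and barcode (Cell Ranger 6.0.0, mm10). These counts were used as deposited. Barcodes were given to mice with HTODemux (Seurat 5.3.0, quantile 0.99, per pool), and cells called doublet or negative were left out. GMP counts were summed per mouse. They were fitted with edgeR 4.0.16 (R 4.3.3, filterByExpr, TMM, quasi-likelihood) over all 9 mice, with groups from the hashtags and n = 3 mice. CPM of genes are relative to the library size multiplied by its TMM factor, and sums over marker lists to the library size itself. The method was checked on artificial counts. DESeq2 1.42.0 was an alternative. Intervals and limits cover counting error only. UMI depth per GMP favors abundant genes, and low genes are less certain.

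The labels place 1 mouse of each group in every pool, so the pool pairs the mice. Deviations of vehicle and BRQ mice from their group means had a median correlation of 0.09 within pools (3 pairs, -0.02 to 0.11) and of -0.04 between pools (6 pairs).

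The cells, gene lists and comparisons were chosen with earlier results of these data known. Genes were named by rule: the 12 called genes of largest change in each direction with at least 20 CPM and no overlap, up to 3 called members of each list by p, 5 marker genes, and 3 interaction genes in each direction. Some genes and 1 gene list are not reported here. Other list members were named after their values were seen. Library totals and the repeat with deeper comparison cells were added after seeing the data. Gene positions are from GENCODE M21 (GRCm38).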

Additional observations from a re-analysis of the deposited data

Results flagged for a closer look

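For 14 of the genes named here, the difference between BRQ and vehicle mice was not the same in GMPs and in the comparison cells. The latter held Mpo but no Ms4a3 UMI, and genes were called by a test of the interaction (edgeR, quasi-likelihood, 9399 genes). Most such calls depended on the libraries and cells used. Of the 40 genes called in all, 3 stayed called with an Mpo limit of 3, 7 without BRQ1, 8 without Veh2, 10 without Veh3, 13 without BRQ2 and 19 against comparison cells of at least 5000 UMIs. Each value is the estimate of that interaction on the log2 scale, positive where the BRQ minus vehicle difference was larger in GMPs. Values given for 1 kind of cell are differences of mean log2 CPM, so they need not subtract to it. For 7 genes the value was positive. It was 2.03 for Anxa1 (adjusted p = 0.0121), 1.57 for Cd53 (adjusted p = 0.00519) and 1.13 for Anxa2 (adjusted p = 0.0357). Cd84 had 1.75 (adjusted p = 0.0316), Vim 0.93 (adjusted p = 0.0411), Slpi 1.43 (adjusted p = 0.00519) and Siglecf, a sialic acid-binding receptor best known from eosinophils, 2.99 (adjusted p = 0.00519). Of these, Vim had -0.02 in the other cells and Siglecf -1.92.

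For 7 genes the value was negative. It was -1.74 for Creld2 (adjusted p = 0.0319), -1.58 for Fkbp11 (adjusted p = 0.0461), -1.33 for Sdf2l1 (adjusted p = 0.032), -1.36 for Manf (adjusted p = 0.00519) and -1.30 for Hsp90b1 (adjusted p = 0.00484), all ER chaperones or folding factors. Rpl22l1, a paralog of the ribosomal protein gene Rpl22, had -1.29 (adjusted p = 0.00519) and Prtn3 -0.89 (adjusted p = 0.0121). The comparison cells had far fewer UMIs than GMPs, and the part of depth in these 14 differences was not tested gene by gene.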

How the results depend on the processing

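The number of called genes, 1389 with 628 higher and 761 lower, was sensitive to the settings, and the cause was not tested. It was 891 with DESeq2 (345 higher), 2105 with the pool as a replicate block (1184 lower), 371 with an Ms4a3 limit of 3.5 (147 higher, 224 lower), 576 after thinning GMPs to 5000 UMIs (246 and 330) and 187 when mice were called by hashtag ratios (98 and 89). Scaling by library totals, added after seeing the data, gave 2243 (1984 and 259). With 500 to 7500 read as UMIs in place of genes, which keeps shallow cells and 8 Veh2 GMPs, 0 of 3229 genes were called higher or lower and 140 had an unadjusted p under 0.05. Leaving out 1 mouse gave 699 to 1477 genes, 302 to 751 of them higher and 397 to 773 lower, the fewest without Veh1. No genes of the 24 of largest change lost the call when a mouse was left out.

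Directions turned for a few named genes. Without Scrublet-marked cells these were Retnlg (-0.27), Ly6g (-0.10) and S100a6 (-0.28). With hashtag ratios it was Mthfd2 (0.048), and 59 named genes lost their call, Gmppb, Dgat2 and Crip1 of the 24 among them. Leaving out 1 mouse ended 1 to 25 such calls, the most without Veh1. With 500 to 7500 UMIs they were Hmgb1 (0.19), Retnlg (-0.84), Cybb (-0.22), Psmc4 (0.013), Aprt (0.035), Atp5g1 (0.043) and S100a6 (-1.50). The pool block, which pairs the mice of 1 pool, turned no named gene and ended no call among them.

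The 40 genes called between GMPs and the comparison cells became 107 with DESeq2, 238 without a filter on low counts and 3 with an Mpo limit of 3. They became 8 to 715 when 1 mouse was left out. The late share differed by -21.5 percentage points with 500 to 7500 UMIs and by -11.6 with hashtag ratios, in place of -7.49, with overlapping groups in both (exact permutation test, p = 0.4 and 0.3). Veh2, with 95 GMPs, limits the precision of low genes.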
